A study of Mus musculus with 12 samples.

Results

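Interferon-stimulated genes were examined in the LV and RV of mouse hearts carrying human WT-PLN or R14del-PLN. The set was fixed as 8 gene symbols, Ifit1, Ifit3, Isg15, Irf7, Irf1, Oasl2, Bst2 and Ifitm3, and all 8 were found among the 33641 genes listed in each of the 12 samples. The rule uses gene symbols alone. The values are in TPM, the length-corrected share of all transcripts in a sample that belongs to a gene. A gene was tested if its mean over the 12 samples was at least 0.5 TPM, and 12526 genes, among them all 8 interferon-stimulated genes, passed that filter.

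Interferons are secreted proteins by which a cell warns itself and its neighbours of viral nucleic acid or of damage. Type I interferon signals through the receptor chains Ifnar1 and Ifnar2 and the kinases Jak1 and Tyk2 to a complex with Irf9, which binds the interferon-stimulated response element (ISRE), whereas interferon-gamma acts through the gamma-activated site (GAS). Cardiac endothelial cells, macrophages, fibroblasts and cardiomyocytes all carry these receptors, and interferon-stimulated genes are also transcribed at a low level in healthy tissue.

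There were 4 groups of 3 samples: LV and RV of WT-PLN hearts, and LV and RV of R14del-PLN hearts. In both lines the mouse phospholamban coding sequence was replaced by the human one through a knock-in at the start codon, and founders were crossed with Sox2-Cre mice, so the WT-PLN controls are knock-in mice as well. R14del-PLN removes arginine 14 from phospholamban, the inhibitor of the sarcoplasmic reticulum calcium pump. The sample labels give strain C57BL/6J and an age of 12 to 14 weeks for every sample, and mark the mutant samples as KO in their titles. The study's methods describe male mice of a hybrid line derived from 129/Sv-CP and C57Bl/6J, in which the mutant mice were heterozygous. RNA came from frozen ventricle as a whole, so fewer cells of a type and less RNA per cell cannot be told apart.

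The study counts its replicates as mice, but the labels do not name the animal behind a sample and do not say whether LV and RV samples of the same number came from one heart. TPM keep no record of sequencing depth, which is therefore unknown. Between 17924 and 18879 genes were above 0 in a sample. Pln lay between 1559 and 1963 TPM in all 12 samples, which does not check the genotype, since both lines express the gene. Cardiomyocyte markers were abundant in every sample, with a sum of 23940 to 36458 TPM over 6 genes. Between 37.3% and 54.5% of all TPM belonged to mitochondrially encoded genes, with the lowest share in LV sample 3 of R14del-PLN hearts. Both WT-PLN samples numbered 1 had Y-linked genes at no more than 0.191 TPM, while the remaining 10 samples had them at 3.03 to 30.6 TPM, which goes against the male mice of the study's methods. RV sample 3 of R14del-PLN hearts came from sequencing run 143 and all other samples from run 136.

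The upstream sequences of these genes were searched for the letters of the elements through which interferon acts. RefSeq sequence of mouse assembly GRCm38.p6 was read from 250 bases before to 50 bases after each annotated start, in 9 windows for the 8 genes, since Irf1 has 2 starts. The windows were searched on both strands for GAAA followed after any 2 bases by a second GAAA, taken as ISRE, and for TTC followed after any 3 bases by GAA, which reads the same on both strands, taken as GAS. An ISRE match was found for 5 of the 8 genes (62.5%), against 3.99% of 27025 genes in RefSeq, and a GAS match for 3 of the 8 (37.5%), against 9.55%. The stretches below run from 250 bases before to 30 bases after the start, 5′ to 3′ on the strand of the gene, with the matches in capitals. Isg15 is shown for its 3 overlapping ISRE matches, Ifit3 for 2 separate ones, Ifitm3 for ISRE and GAS together, Irf1 for a GAS match alone, and Oasl2 because the results return to it, although neither set of letters is in its window.
Isg15: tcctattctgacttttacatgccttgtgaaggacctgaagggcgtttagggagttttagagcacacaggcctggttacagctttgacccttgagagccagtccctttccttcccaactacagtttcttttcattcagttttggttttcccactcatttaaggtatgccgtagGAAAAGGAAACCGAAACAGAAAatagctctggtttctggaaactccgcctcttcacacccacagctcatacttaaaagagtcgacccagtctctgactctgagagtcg
Ifit3: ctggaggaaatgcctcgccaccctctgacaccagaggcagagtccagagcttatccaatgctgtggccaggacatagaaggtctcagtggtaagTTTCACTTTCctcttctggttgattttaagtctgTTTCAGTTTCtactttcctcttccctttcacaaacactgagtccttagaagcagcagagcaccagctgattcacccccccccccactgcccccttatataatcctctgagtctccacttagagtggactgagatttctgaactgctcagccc
Ifitm3: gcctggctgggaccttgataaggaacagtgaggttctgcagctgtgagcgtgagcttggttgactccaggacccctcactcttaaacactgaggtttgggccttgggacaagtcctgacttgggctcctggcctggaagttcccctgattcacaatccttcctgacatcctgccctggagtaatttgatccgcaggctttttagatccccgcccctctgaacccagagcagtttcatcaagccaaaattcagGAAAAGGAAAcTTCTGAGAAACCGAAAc
Irf1: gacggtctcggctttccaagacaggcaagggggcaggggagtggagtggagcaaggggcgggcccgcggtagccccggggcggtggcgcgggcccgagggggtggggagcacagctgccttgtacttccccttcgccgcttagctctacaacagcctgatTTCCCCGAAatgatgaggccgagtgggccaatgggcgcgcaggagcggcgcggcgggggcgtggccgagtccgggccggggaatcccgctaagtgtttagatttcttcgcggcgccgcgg
Oasl2: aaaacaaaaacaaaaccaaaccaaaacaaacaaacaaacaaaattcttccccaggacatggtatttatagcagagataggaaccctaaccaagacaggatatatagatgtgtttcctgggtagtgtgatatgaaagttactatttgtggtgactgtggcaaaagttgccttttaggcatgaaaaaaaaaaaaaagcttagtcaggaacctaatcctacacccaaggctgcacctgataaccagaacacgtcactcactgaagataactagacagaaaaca
The stretch of Isg15 is chr4:156200789-156201068 on the minus strand, that of Ifit3 chr19:34583279-34583558 on the plus strand and that of Ifitm3 chr7:141010715-141010994 on the minus strand. The stretch of Irf1 is chr11:53769764-53770043 and that of Oasl2 chr5:114896684-114896963, both on the plus strand. The first bases of the Isg15 matches lie 78, 72 and 66 bases before the start, and neighbouring matches share 4 bases. In Ifit3 the matches, which read TTTC in place of GAAA on this strand, begin 156 and 122 bases before the start. In Ifitm3 they lie after the start, at bases 3 to 12 and 20 to 29, and the GAS match at bases 14 to 22 shares 3 bases with the second. The GAS match of Irf1 begins 90 bases before the start. Ifit1 has ISRE matches that begin 104 and 85 bases before its start, and Bst2 has them at 130 and 124 bases, sharing 4 bases, with a GAS match at 136 bases that shares 3. A match is a description of the letters and not evidence of binding.

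Irf7 and Irf1 encode interferon regulatory factors, which bind DNA themselves. Irf7 is the factor that amplifies type I interferon production, and Irf1 is induced above all by interferon-gamma. Irf7 (chromosome 7, 141262706 to 141266481) was at 3.43, 2.83 and 3.01 TPM in WT-PLN LV and 1.70, 2.23 and 2.17 TPM in WT-PLN RV. It was at 2.20, 1.93 and 3.91 TPM in R14del-PLN LV and 2.11, 3.30 and 1.55 TPM in R14del-PLN RV. Thus each WT-PLN LV sample lay above each WT-PLN RV sample, while both R14del-PLN groups overlapped with both WT-PLN groups. Irf1 (chromosome 11, 53770014 to 53778374) was at 7.41, 11.4 and 10.2 TPM in WT-PLN LV and 6.38, 7.50 and 6.30 TPM in WT-PLN RV. In R14del-PLN hearts it was at 6.28, 8.31 and 7.53 TPM in LV and 7.27, 7.66 and 5.27 TPM in RV. LV samples 2 and 3 of WT-PLN hearts stood above all other samples, and the ranges of all 4 groups overlapped. Irf7 overlaps Phrf1 by 45 bases and Irf1 overlaps Gm17334 by 907 bases, each on the opposite strand, and the sources do not tell if reads were assigned by strand.

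Isg15 encodes a ubiquitin-like modifier that is attached to proteins in response to interferon. Isg15 (chromosome 4, 156199424 to 156200818) was at 2.31, 1.91 and 2.13 TPM in WT-PLN LV and 0.898, 1.19 and 1.37 TPM in WT-PLN RV. It was at 1.42, 1.37 and 2.29 TPM in R14del-PLN LV and 1.61, 3.01 and 1.69 TPM in R14del-PLN RV. The 3 RV samples of WT-PLN hearts held the 3 lowest values of Isg15 except for LV sample 2 of R14del-PLN hearts, which lay just below the highest of them, and RV sample 2 of R14del-PLN hearts held the highest. An annotated copy, AC151275.1, is 95.2% identical to Isg15 over 482 bases and was not analysed here, so the share of reads that fell to it is uncertain.

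Ifit1, Ifit3 and Oasl2 encode antiviral effectors in the cytosol. Ifit1 binds viral RNA that lacks the host cap structure, Ifit3 stabilises it in a complex, and Oasl2 belongs to the oligoadenylate synthetase family that responds to double-stranded RNA. Ifit1 (chromosome 19, 34640871 to 34650009) was at 1.31, 1.20 and 1.13 TPM in WT-PLN LV and 0.708, 0.921 and 1.83 TPM in WT-PLN RV, and at 0.535, 0.887 and 1.51 TPM in R14del-PLN LV and 0.978, 2.47 and 0.452 TPM in R14del-PLN RV. The RV of R14del-PLN hearts held both the highest and the lowest value of Ifit1, and all groups overlapped. Ifit3 (chromosome 19, 34583531 to 34588731) was at 4.92, 3.28 and 3.66 TPM in WT-PLN LV and 2.50, 2.30 and 4.55 TPM in WT-PLN RV, and at 2.77, 3.58 and 6.67 TPM in R14del-PLN LV and 3.45, 7.90 and 3.35 TPM in R14del-PLN RV. LV sample 3 and RV sample 2 of R14del-PLN hearts stood apart at the top, and all groups overlapped. Ifit3b, a neighbour 97.8% identical to Ifit3 over 1700 bases, had a mean of 1.83 TPM, and how reads were divided between them is not stated. Ifit3 made up 62.1% to 74.9% of their sum, which was 5.65 ± 0.970 TPM in WT-PLN LV and 4.33 ± 1.52 TPM in WT-PLN RV and 6.54 ± 2.82 TPM in R14del-PLN LV and 7.13 ± 3.48 TPM in R14del-PLN RV (SD, n = 3 each). Oasl2 (chromosome 5, 114896936 to 114912234) was at 2.50, 1.55 and 2.30 TPM in WT-PLN LV and 1.10, 1.09 and 1.28 TPM in WT-PLN RV, and at 1.88, 1.51 and 2.12 TPM in R14del-PLN LV and 2.03, 2.11 and 1.33 TPM in R14del-PLN RV. The 3 lowest values of Oasl2 were those of the WT-PLN RV, which overlapped with no other group.

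Bst2 and Ifitm3 encode membrane proteins that restrict enveloped viruses, Bst2 (tetherin) by holding budding particles at the cell surface and Ifitm3 by blocking fusion in endosomes. Bst2 (chromosome 8, 71534255 to 71537456) was at 10.1, 12.1 and 10.6 TPM in WT-PLN LV and 9.50, 9.71 and 7.58 TPM in WT-PLN RV, and at 7.26, 9.04 and 10.1 TPM in R14del-PLN LV and 8.21, 9.31 and 5.75 TPM in R14del-PLN RV. The WT-PLN LV lay above the WT-PLN RV with no overlap, and the genotypes overlapped in both ventricles. Ifitm3 (chromosome 7, 141009586 to 141010770) was at 53.8, 63.8 and 68.8 TPM in WT-PLN LV and 42.3, 42.8 and 42.6 TPM in WT-PLN RV, and at 43.8, 49.9 and 58.1 TPM in R14del-PLN LV and 42.2, 37.3 and 37.8 TPM in R14del-PLN RV. Every LV sample was above every RV sample for Ifitm3, and the genotypes overlapped in LV but not in RV. With a mean of 48.6 TPM it was the most abundant of the 8 genes, followed by Bst2 at 9.11, Irf1 at 7.63, Ifit3 at 4.08, Irf7 at 2.53, Isg15 at 1.77, Oasl2 at 1.73 and Ifit1 at 1.16 TPM.

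In the order of the group means, the WT-PLN LV came first for Isg15, Irf7, Irf1, Oasl2, Bst2 and Ifitm3, and the R14del-PLN RV came first for Ifit1 and Ifit3. The WT-PLN RV came last for Ifit3, Isg15, Irf7, Irf1 and Oasl2. Of the neighbours in these orders, only 4 pairs did not overlap: R14del-PLN RV over WT-PLN RV for Oasl2, WT-PLN LV over WT-PLN RV for Bst2, and R14del-PLN LV over WT-PLN RV and WT-PLN RV over R14del-PLN RV for Ifitm3. All other neighbours overlapped.

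**Figure D1:**
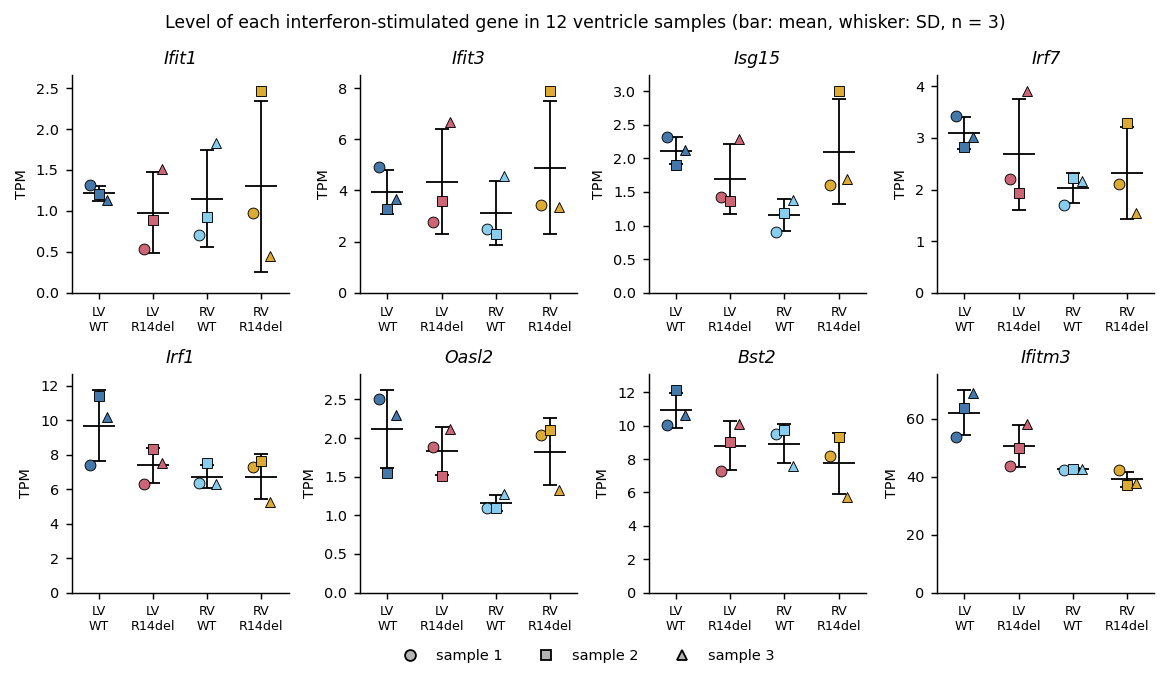
The 8 panels show TPM of each gene (y axis, from 0) in LV and RV of WT-PLN and R14del-PLN hearts (x axis), with 1 symbol per sample and the mean and SD of 3 samples as a bar with whiskers. Oasl2 lay lowest in the WT-PLN RV, at 1.09 to 1.28 TPM, and Ifitm3 was at 43.8 TPM or more in every LV sample and at 42.8 TPM or less in every RV sample.

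Comparison of RV with LV in WT-PLN hearts asked whether these genes differ between the ventricles without the mutation. All 8 were lower in the RV by their log2 fold change as deposited, and 7 of 8, all but Ifit1, after upper quartile scaling or quantile normalization, with a median of -0.44 on the log2(TPM + 1) scale. The largest differences were those of Isg15, Ifitm3 and Oasl2. Isg15 averaged 1.15 ± 0.240 TPM in RV and 2.11 ± 0.204 TPM in LV (SD, n = 3), Oasl2 1.16 ± 0.105 and 2.12 ± 0.499 TPM (SD, n = 3), and Ifitm3 42.6 ± 0.270 and 62.1 ± 7.62 TPM (SD, n = 3). On that scale, which understates the change of genes with low TPM, Isg15 differed by -0.54 (SE 0.18), Ifitm3 by -0.53 (SE 0.13) and Oasl2 by -0.52 (SE 0.16). With limma and Benjamini-Hochberg adjustment over 12526 genes, 0 of the 8 were called, which needs an adjusted p no higher than 0.05 and a difference of 1.5-fold or more, and 0.0% of all tested genes were. The adjusted p was 0.208 for Ifitm3, 0.242 for Oasl2 and 0.271 for Isg15, and 0.300 to 0.894 for the other 5. At an unadjusted p under 0.05 there were 4 of the 8, Ifitm3 (limma, 0.00128), Oasl2 (0.00521), Isg15 (0.0105) and Irf1 (0.0210), against 14.5% of all tested genes. There were 3 to 5 of the 8 when single samples were left out and 2 without both WT-PLN samples numbered 1.

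Most genes in the heart were lower in this comparison, in which 85.9% of all tested genes were below 0 with a median of -0.17. The samples did not overlap for 5 of the 8 genes, Isg15, Irf7, Oasl2, Bst2 and Ifitm3, with RV lower, against 25.2% of all tested genes, while 0.974% were higher. For each of the 5 the two-sided exact permutation test gave p = 0.1, the smallest that 3 samples against 3 allow, and 0.356 after Benjamini-Hochberg adjustment over the 32 comparisons of a member between groups. After scaling to the upper quartile the median of all genes moved to -0.0072 and that of the 8 genes to -0.29, and without mitochondrially encoded genes they were -0.059 and -0.37. Relative to the median of all genes, the median of the 8 was therefore -0.28 as deposited and -0.28 and -0.31 on these scales. Bst2 then overlapped, and the count became 4 of 8, against 9.5% and 12.0% of all tested genes. Without both WT-PLN samples numbered 1, 6 of 8 did not overlap against 51.8%, and the values were -0.62 for Ifitm3, -0.40 for Isg15 and -0.41 for Oasl2 (limma adjusted p 0.361, 0.473 and 0.444). With genotype and sample number as a replicate block, which pairs LV and RV, limma called 12 genes (0.0958%) with the block as a fixed term, none of them among the 8, and 0 genes with the block as a random term.

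In R14del-PLN hearts, Ifitm3 was again lower in RV than in LV, at 39.1 ± 2.70 against 50.6 ± 7.18 TPM (SD, n = 3), a log2 fold change of -0.36 (SE 0.13, limma adjusted p = 0.737). It was the only one of the 8 with samples that did not overlap (exact permutation p = 0.1), where 8.72% of all tested genes were lower in RV without overlap, while 1.26% were higher (3.61% and 11.5% without mitochondrially encoded genes, 6.7% and 7.38% after upper quartile scaling), and the only one at an unadjusted p under 0.05 (limma, 0.0160), against 6.57% of all tested genes. Without LV sample 3 there were 0 of the 8. With limma 0 of the 8 were called, and 0.0% of all tested genes. Ifit1, Ifit3 and Isg15 had log2 fold changes of 0.15, 0.13 and 0.19, and Irf7, Irf1, Oasl2 and Bst2 of -0.14, -0.12, -0.013 and -0.18. The median of the 8 genes was -0.067, against -0.076 for all tested genes. As deposited, 5 of the 8 were below 0 in R14del-PLN hearts, as were 70.3% of all tested genes. After upper quartile scaling 4 of the 8 were below 0, with the median of all tested genes at 0.0030, and without mitochondrially encoded genes 3 of the 8, with that median at 0.059. The count rested on single samples. It was 1 of 8 with a median of 0.075 without RV sample 3, which came from the other sequencing run, 3 of 8 with a median of 0.071 without LV sample 3, which had the lowest mitochondrial share, and 8 of 8 with a median of -0.21 without RV sample 2. Bst2 averaged 7.76 ± 1.82 TPM in RV and 8.81 ± 1.45 TPM in LV, and Irf1 6.73 ± 1.28 and 7.37 ± 1.02 TPM (SD, n = 3 each), with samples that overlapped.

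The effect of the mutation in the LV was compared next. In 7 of the 8 genes the mean log2 level was lower in R14del-PLN than in WT-PLN LV, with Ifit3 as the exception at 0.056. The median of the 8 was -0.21, against -0.086 for all tested genes, of which 71.7% were below 0. Without WT-PLN LV sample 1 these medians were -0.17 and -0.15, and without R14del-PLN LV sample 3 they were -0.38 and -0.19. Irf1 averaged 7.37 ± 1.02 TPM in R14del-PLN and 9.67 ± 2.05 TPM in WT-PLN LV (SD, n = 3), a log2 fold change of -0.34 (SE 0.17). Ifitm3 averaged 50.6 ± 7.18 and 62.1 ± 7.62 TPM (SD, n = 3), a log2 fold change of -0.29 (SE 0.13), and Bst2 was at -0.29 (SE 0.17). None of the 8 was called with limma, where 0.519% of all tested genes were, and their adjusted p ranged from 0.488 for Ifitm3 to 0.974 for Ifit3. Ifitm3 was the only one at an unadjusted p under 0.05 (limma, 0.0411), against 9.6% of all tested genes, and there were 0 to 2 of the 8 when single samples were left out. The samples of both genotypes overlapped for all 8 genes, while 8.47% of all tested genes were lower and 2.48% higher in R14del-PLN LV without overlap. After upper quartile scaling Ifitm3 was lower without overlap, where 1256 of the 12526 tested genes were lower and 1541 (12.3%) higher. Without mitochondrially encoded genes, Bst2 and Ifitm3 were lower without overlap (15.3% of all tested genes lower and 4.94% higher). Without both WT-PLN samples numbered 1, Irf1, Bst2 and Ifitm3 were lower without overlap (24.9% of all tested genes lower and 3.24% higher).

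In the RV, Isg15 and Oasl2 were higher in R14del-PLN than in WT-PLN hearts without overlap, and Ifitm3 was lower without overlap as deposited. Isg15 averaged 2.10 ± 0.784 TPM in R14del-PLN and 1.15 ± 0.240 TPM in WT-PLN RV, and Oasl2 1.82 ± 0.431 and 1.16 ± 0.105 TPM (SD, n = 3 each), and for both every R14del-PLN sample was above every WT-PLN sample. The log2 fold change was 0.50 (SE 0.18, 95% interval 0.12 to 0.89) for Isg15 and 0.38 (SE 0.16, 95% interval 0.043 to 0.71) for Oasl2. Neither was called: the limma adjusted p was 0.552 and 0.702, and the unadjusted p 0.0150 and 0.0298. With limma 0 of the 8 were called against 0.271% of all tested genes, and 2 of the 8 were at an unadjusted p under 0.05 against 6.22%. That count was 0 of 8 without R14del-PLN RV sample 2, without WT-PLN RV sample 1, and without both WT-PLN samples numbered 1. Higher values without overlap were found for 5.19% of all tested genes, and the exact permutation p of Isg15 and Oasl2 was 0.1, the smallest possible.

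The other 6 genes did not separate in this direction. Ifit3 averaged 4.90 ± 2.60 TPM in R14del-PLN and 3.12 ± 1.25 TPM in WT-PLN RV (SD, n = 3), with a log2 fold change of 0.48 (SE 0.31) that was smaller relative to its error. Without R14del-PLN sample 2 it was 0.14. Irf7, Ifit1 and Irf1 were at 0.10, 0.034 and -0.010, and Bst2 at -0.20 (SE 0.17). Ifitm3 was lower without overlap, at 39.1 ± 2.70 against 42.6 ± 0.270 TPM (SD, n = 3), where 5.79% of all tested genes were so, with a log2 fold change of -0.12 (SE 0.13, limma adjusted p = 1). These samples overlapped after upper quartile scaling and without mitochondrially encoded genes. Thus 3 of the 8 were below 0 (2 on both other scales), against 50.9% of all tested genes, and the median of the 8 was 0.068, against -0.0034 for all. Leaving out 1 sample moved this median from -0.095, with 5 of 8 below 0, without R14del-PLN RV sample 2 to 0.30, with 2 of 8 below 0, without R14del-PLN RV sample 3.

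**Figure D2:**
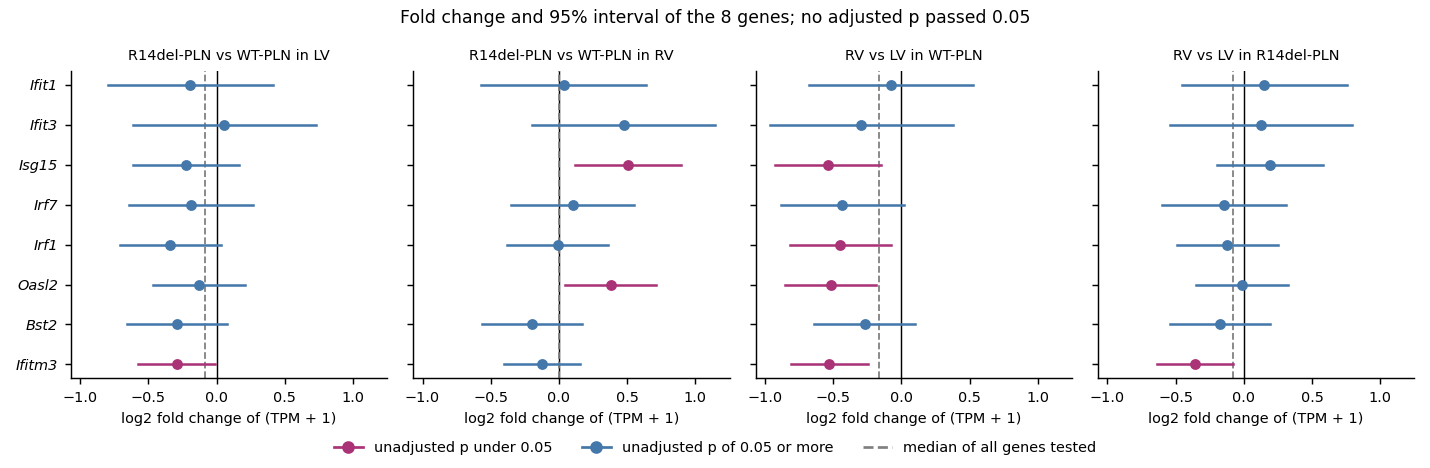
Points show the log2 fold change of TPM + 1 (x axis) of each of the 8 genes (y axis) in 4 comparisons, with 95% intervals from limma, and the dashed line marks the median of all tested genes. In RV against LV of WT-PLN hearts all 8 points lie below 0 (7 of 8 after upper quartile scaling), and in R14del-PLN against WT-PLN RV 5 of 8 lie above it, Isg15 (0.50), Ifit3 (0.48), Oasl2 (0.38), Irf7 (0.10) and Ifit1 (0.034).

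Since both comparisons use the WT-PLN RV samples, the low Isg15 and Oasl2 there enter both the difference between the ventricles and that between the genotypes, and these are not independent of each other. Isg15 and Oasl2 kept samples that did not overlap between R14del-PLN and WT-PLN RV without mitochondrially encoded genes (9.19% of all tested genes higher without overlap) and after upper quartile scaling (9.38%). Leaving out sample 2 of the R14del-PLN RV, which held the highest Isg15, gave 0.31 for Isg15 and 0.30 for Oasl2 and no overlap (6.91%). Leaving out sample 3, of the other sequencing run, gave 0.59 and 0.51 (12.6%). Without both WT-PLN samples numbered 1 the values were 0.42 and 0.36 (6.99%), with limma adjusted p of 0.783 and 0.773.

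**Figure D3:**
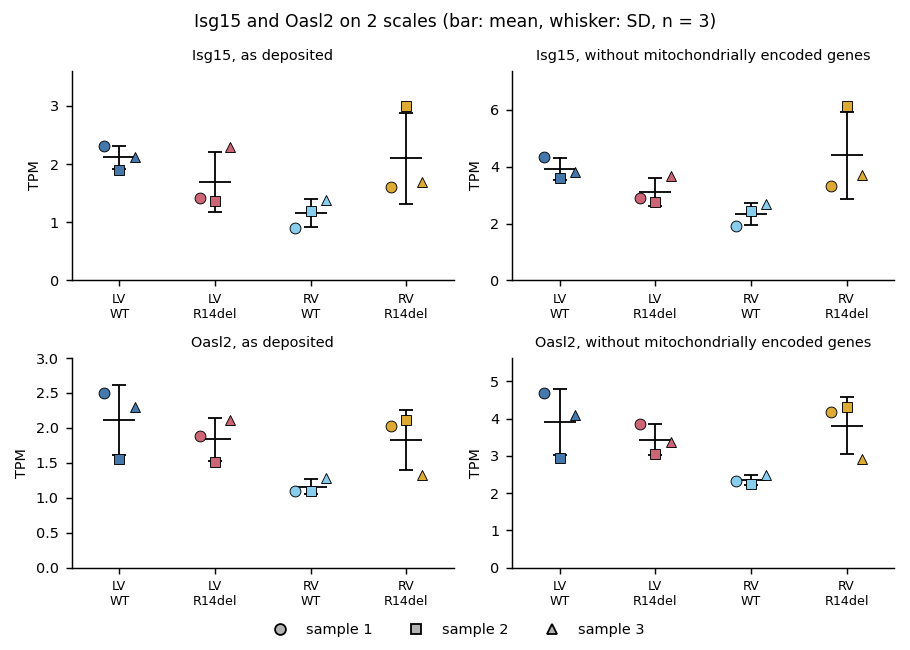
Panels show TPM (y axis, from 0) of Isg15 and Oasl2 by group (x axis), as deposited and after mitochondrially encoded genes were removed, with 1 symbol per sample and the mean and SD of 3 samples. On both scales all 3 R14del-PLN RV samples of each gene lie above all 3 WT-PLN RV samples.

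An interaction term for genotype and ventricle, the effect in RV minus the effect in LV, asked if the mutation acted differently in the ventricles. All 8 genes had a value above 0 (7 of 8, all but Bst2, with quantile normalization), with a median of 0.31, and 25.7% of all tested genes were below 0 with a median of 0.082. Without R14del-PLN RV sample 2 the median of the 8 was 0.14 with 2 of 8 below 0, without R14del-PLN RV sample 3 it was 0.49 and without R14del-PLN LV sample 3 it was 0.47. Isg15 had the largest value, 0.73 (SE 0.25, 95% interval 0.18 to 1.28), from an effect of -0.22 in LV and 0.50 in RV. Oasl2 followed at 0.51 (SE 0.22, 95% interval 0.033 to 0.98), from -0.13 and 0.38. The unadjusted limma p was 0.0133 and 0.0380, and the adjusted p 0.9999 for all 8 genes. With limma 0 of the 8 and 0.0% of all tested genes were called, and 2 of the 8 were at an unadjusted p under 0.05, against 1.01% of all tested genes. Without mitochondrially encoded genes the interaction was 0.93 for Isg15 and 0.65 for Oasl2 (limma adjusted p 0.990 for both), and without both WT-PLN samples numbered 1 it was 0.60 and 0.40, with 0 of the 8 at an unadjusted p under 0.05. That count was 1 or 2 of 8 when single samples were left out. The other 6 genes had interaction values of 0.23 (SE 0.40) for Ifit1, 0.42 (SE 0.44) for Ifit3, 0.29 (SE 0.30) for Irf7, 0.33 (SE 0.24) for Irf1, 0.093 (SE 0.24) for Bst2 and 0.17 (SE 0.18) for Ifitm3. A difference between the ventricles in the effect of the mutation was thus shown for none of the 8.

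The spread within groups was described by the SD over the 3 samples. The median SD of the 8 genes on the log2(TPM + 1) scale was 0.15 in WT-PLN LV, 0.15 in WT-PLN RV, 0.24 in R14del-PLN LV and 0.33 in R14del-PLN RV, where the medians of all tested genes were 0.16, 0.15, 0.20 and 0.16. A difference in spread was not tested, and in LV the coefficient of variation of TPM was larger in WT-PLN than in R14del-PLN for Irf1 (21.2% against 13.9%) and Oasl2 (23.6% against 16.8%). In the R14del-PLN RV, sample 2 held the highest value of 7 of the 8 genes, all but Ifitm3, while it was the highest for 57.7% of all tested genes. Without mitochondrially encoded genes these were 7 of 8 and 52.9%. In the R14del-PLN LV, sample 3 was the highest for 7 of 8, all but Irf1, and for 86.7% of all tested genes, whereas without mitochondrially encoded genes it was the highest for 4 of 8 and 38.6%. Ifit1 spanned 5.46-fold from lowest to highest among the R14del-PLN RV samples and 1.16-fold among the WT-PLN LV samples.

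Over the 12 samples the genes fell loosely into 2 sets of likeness, given as a description, since the samples share groups and their share of mitochondrial transcripts. Ifit3 followed Isg15 (Pearson's r = 0.83 of log2(TPM + 1)) and Ifit1 (0.81), and Isg15 followed Irf7 (0.80) and Oasl2 (0.79). Irf1 followed Bst2 (0.85) and Ifitm3 (0.79), and Bst2 followed Ifitm3 (0.71). Ifit3 and the second set were unlike, with 0.052 for Ifitm3, 0.076 for Irf1 and 0.14 for Bst2, whereas Irf7 stood between the sets with 0.52 or more for every other gene. The sets were not clearly apart. Ifit1 and Oasl2, both in the first, had 0.37, below Oasl2 with Ifitm3 (0.43) and Ifit1 with Bst2 (0.42). The genes outside the set that were most like the mean of the 8 were Rps3 (0.95), Gm15801 and Gm8783 (0.95, with identical values), Becn1 (0.95) and Epb41l2 (0.94). The genes most like single members were Ncor1 and Cnot1 for Ifit1 (0.92 each), Ccdc174 and Fyttd1 for Ifit3 (0.96 each), Afap1l2 and Dedd for Isg15 (0.91 each) and Ttc1 and Rps23 for Irf7 (0.94 each). They were Fam219a (0.95) and Shisa5 (0.92) for Irf1, Dnm3 and Trim41 (0.90 each) for Oasl2, Ciao1 (0.93) and Lpin3 (0.90) for Bst2, and Ppia and Cops6 (0.98 each) for Ifitm3. None of these genes is in the interferon lists described next, and the values say nothing of shared control.

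**Figure D4:**
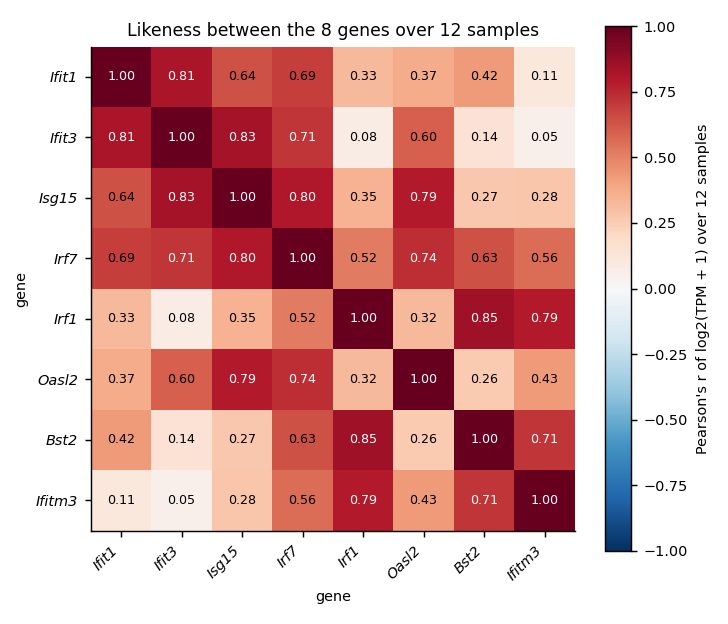
Each cell gives Pearson's r of log2(TPM + 1) over 12 samples for a pair of the 8 genes (both axes), coloured from -1 to 1. Ifit1, Ifit3, Isg15, Irf7 and Oasl2 form one block with values from 0.37 to 0.83, and Irf1, Bst2 and Ifitm3 another with values from 0.71 to 0.85. Values between the blocks run from 0.052 (Ifit3 and Ifitm3) to 0.63 (Irf7 and Bst2).

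The wider pathway was then described from lists. Of 11 genes for interferon ligands, 9 (among them Ifnb1 and 4 Ifna genes) were listed at 0 in every sample, and Ifng and Ifnz stayed under 0.5 TPM, so none was tested. The 14 genes for receptors, kinases and other signalling parts were all tested, from the phosphatase Ptpn6 at a mean of 1.54 TPM to the receptor chain Il10rb at 69.9 TPM, and 0 of them were called in any of the 5 comparisons. In RV against LV of WT-PLN hearts 4 of the 14 were lower without overlap, against 25.2% of all tested genes. Between the genotypes 1 of the 14 was lower without overlap in R14del-PLN LV (8.47% of all tested genes) and 2 of the 14 in R14del-PLN RV (5.79%). Irf9, the DNA-binding part of the type I complex, averaged 4.36 TPM in WT-PLN LV against 3.23, 3.19 and 2.95 TPM in R14del-PLN LV, WT-PLN RV and R14del-PLN RV, and its WT-PLN LV samples overlapped with neither the R14del-PLN LV nor the WT-PLN RV. Ifngr1, a receptor chain for interferon-gamma, was lower without overlap in R14del-PLN than in WT-PLN RV (15.8 against 18.8 TPM) and in RV than in LV of WT-PLN hearts (25.0 TPM in LV).

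Of 54 further genes of the type I interferon response, 44 were tested and 0 were called in any comparison. In RV against LV of WT-PLN hearts 40 of the 44 were below 0, where 85.9% of all tested genes were. Their median was -0.29, against -0.17 for all tested genes. Lower values without overlap were found for 18 of the 44, which is 40.9% against 25.2% of all tested genes. These shares were 36.4% against 12.0% without mitochondrially encoded genes and 61.4% against 51.8% without both WT-PLN samples numbered 1. In R14del-PLN against WT-PLN RV the median was 0.13, and 6 of the 44 were higher without overlap (13.6% against 5.19%, and 22.7% against 9.19% without mitochondrially encoded genes): Ifit2, Ifit3b, Dtx3l, Sp100, Adar and Tor3a. Isg20, named after its values were seen, was the only one lower without overlap. Adar, which edits double-stranded RNA, averaged 3.17 TPM in R14del-PLN and 1.97 TPM in WT-PLN RV, a log2 fold change of 0.48, and Ifit2, a relative of Ifit1 and Ifit3, 3.55 and 2.12 TPM, a log2 fold change of 0.47. Ifit2, Dtx3l, Sp100, Adar and Tor3a were also lower without overlap in RV than in LV of WT-PLN hearts, which rests on the same WT-PLN RV samples. Ifi35 and Oas1a were lower without overlap in RV than in LV of both genotypes. They were the only 2 of the 44 so in R14del-PLN hearts, 4.55% against 8.72% of all tested genes. Oas2 was higher in WT-PLN LV (1.24 TPM) than in R14del-PLN LV (0.66 TPM) and WT-PLN RV (0.68 TPM). In the LV the median difference between genotypes was -0.025, from -0.74 for Ifi27l2a to 0.46 for Trim21, with 1 of 44 lower without overlap (2.27% against 8.47%).

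Among 22 genes of the interferon-gamma response, 19 were tested and 0 were called. Iigp1, a GTPase that attacks the vacuoles of intracellular parasites, averaged 13.0 TPM in R14del-PLN and 9.33 TPM in WT-PLN LV, and 14.3 and 9.61 TPM in RV, with higher R14del-PLN samples and no overlap in either ventricle. The same was found for Cd274, which encodes the inhibitory ligand PD-L1, at 1.34 and 0.96 TPM in LV and 1.21 and 0.74 TPM in RV. In R14del-PLN against WT-PLN RV 4 of the 19 were higher without overlap, Iigp1, Cd274, Tgtp2 and Il18bp, against 5.19% of all tested genes. In LV 2 of the 19 were higher without overlap, against 2.48%, and 1 of the 19, Nlrc5, was lower, against 8.47%. In RV against LV of WT-PLN hearts 8 of the 19 were lower without overlap, against 25.2% of all tested genes. In R14del-PLN hearts 3 of the 19 were, against 8.72%. Those 3, the immunoproteasome subunit Psmb10, the tRNA ligase Wars and Il18bp, were lower without overlap in both genotypes. Nlrc5, an activator of MHC class I genes, was higher in WT-PLN LV (0.87 TPM) than in R14del-PLN LV (0.49 TPM) and WT-PLN RV (0.38 TPM). Of 9 interferon regulatory factors and binding proteins, 7 were tested. In R14del-PLN against WT-PLN LV 1 of the 7, Irf2bp2, was lower without overlap, against 8.47% of all tested genes. In RV 2 of the 7 were, Irf2bp2 and Irf2bpl, against 5.79%. Irf2bp2, which encodes a corepressor that binds Irf2, was at 4.99 against 10.4 TPM in LV and 4.81 against 10.5 TPM in RV. Its log2 fold changes of -0.90 and -0.98 were not called. Of 14 genes for nucleic acid sensing, 10 were tested, and their median was -0.11 in LV and -0.086 in RV for the mutation and -0.19 and -0.12 for RV against LV in WT-PLN and R14del-PLN hearts. For all tested genes the medians were -0.086, -0.0034, -0.17 and -0.076 in the same order. Tmem173 (STING) was the single one of the 10 that was higher without overlap in R14del-PLN RV, against 5.19% of all tested genes.

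**Figure D5:**
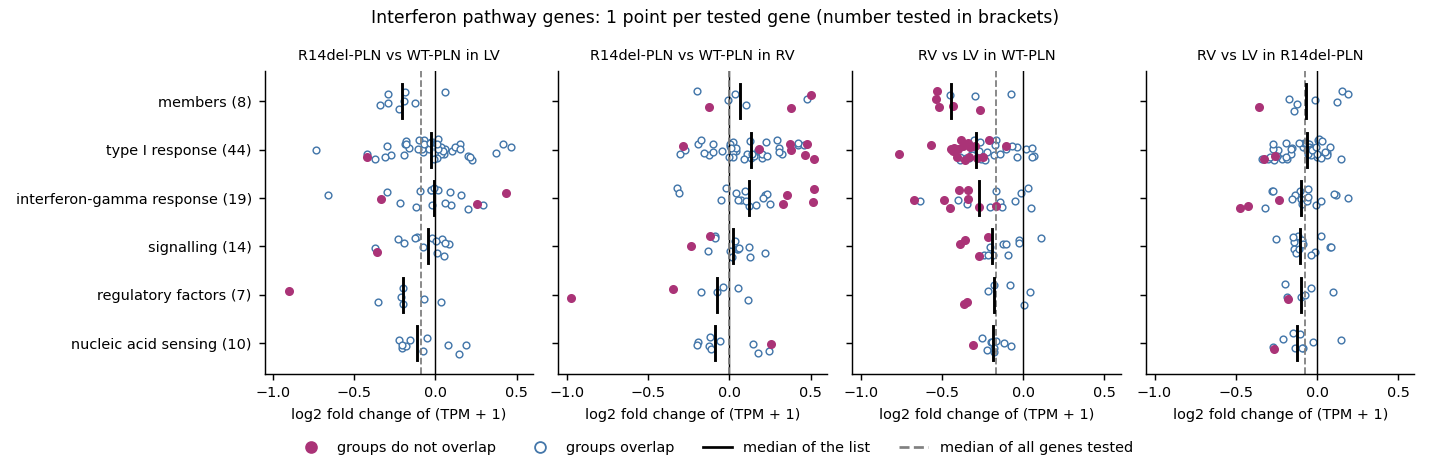
Each point is 1 tested gene at its log2 fold change of TPM + 1 (x axis) in 4 comparisons, by list (y axis), filled where the samples of the groups do not overlap, with the median of the list as a bar and of all tested genes as a dashed line. The type I list has its median at -0.29 in RV against LV of WT-PLN hearts and at 0.13 in R14del-PLN against WT-PLN RV, and no gene of any list was called.

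Markers of other cell types moved in part with these values. In RV against LV of WT-PLN hearts, 7 of 8 endothelial markers were below 0 with a median of -0.41, 6 of them without overlap, where 85.9% of all tested genes were below 0 and 25.2% lower without overlap, and their sum was 106 to 126 TPM in RV and 133 to 168 TPM in LV. All 8 tested macrophage markers were below 0 with a median of -0.23, with sums of 113 to 140 TPM and 135 to 206 TPM, and all 4 red cell markers were lower without overlap, with sums of 1453 to 1730 TPM and 2080 to 2307 TPM. In R14del-PLN against WT-PLN RV the medians were 0.098 for endothelial, -0.027 for macrophage and -0.62 for red cell markers, in the comparison where Isg15 and Oasl2 were higher. Endothelial markers went both ways there, from -0.66 for Vwf to 0.56 for Kdr. Of these 8, 1 was higher and 1 lower without overlap, against 5.19% and 5.79% of all tested genes. The medians for cardiomyocyte, fibroblast and smooth muscle markers were 0.025, -0.26 and -0.51 in RV against LV of WT-PLN hearts and -0.013, -0.15 and 0.15 in R14del-PLN against WT-PLN RV. Neutrophil markers summed to at most 13.2 TPM, in LV sample 3 of WT-PLN hearts. Atrial markers varied widely between samples of a group. Myl7, the atrial myosin light chain, was at 39.4, 0.51 and 299 TPM in WT-PLN LV, 0.19, 0.44 and 0.33 TPM in R14del-PLN LV, 1.35, 320 and 1.46 TPM in WT-PLN RV and 28.5, 212 and 5.75 TPM in R14del-PLN RV, so that 1 sample made up most of the sum of each group except the R14del-PLN LV. The sum of fibroblast markers was 278 to 497 TPM in WT-PLN LV, 233 to 361 TPM in R14del-PLN LV, 301 to 387 TPM in WT-PLN RV and 271 to 375 TPM in R14del-PLN RV. T, NK and B cell markers were under 0.5 TPM in every sample, and of 4 markers of plasmacytoid dendritic cells, the main producers of type I interferon, Tcf4 alone had a mean of at least 0.5 TPM. No marker of these lists was at 0 in every sample. Immediate early genes respond to handling of the tissue as well as to stress. In R14del-PLN against WT-PLN hearts 15 of 15 had a log2 fold change below 0 in each ventricle, and 0 were called. Of all tested genes 71.7% were below 0 in LV and 50.9% in RV. In LV their sums were 117 to 551 TPM in WT-PLN and 73.2 to 104 TPM in R14del-PLN hearts. In RV these sums were 92.1 to 412 TPM and 66.2 to 75.1 TPM. The WT-PLN samples numbered 1 had the lowest WT-PLN sums, 117 TPM in LV and 92.1 TPM in RV. The part of these cell types, of atrial tissue and of the immediate early response in the values of the 8 genes was not tested.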

How the data were processed

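RNA-seq was performed by the authors on whole ventricles of 12 samples, with polyA selection and a stranded kit, and reads were mapped to GRCm38 with CLC Genomics Workbench. The deposited values are TPM per gene, made by the authors. The program behind the TPM and the use of strand are not given in the sources used here. Columns of per-sample values with no sample in the labels numbered 0.

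Genes whose mean over all samples reached 0.5 TPM, 12526 in number, were analysed on the log2(TPM + 1) scale. One model with 4 group means was fitted to all 12 samples with limma 3.58.1 (R 4.3.3) with a prior that follows intensity, on 8 residual degrees of freedom and 5.15 from the prior. Calls needed an adjusted p (Benjamini-Hochberg) no higher than 0.05 together with a 1.5-fold difference or more. The exact permutation tests were two-sided, on the difference of mean log2(TPM + 1). The model was tested on simulated data. Tools were Python 3.11.15, numpy 2.4.6, pandas 2.3.3, scipy 1.17.1, matplotlib 3.10.9, statmod 1.5.0 and BLAST 2.17.0, with which transcripts were searched for near-identical copies. Gene positions are those of GENCODE on GRCm38, and upstream sequences those of RefSeq on GRCm38.p6, which were matched by symbol for 8 of 8 genes.

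The 8 genes, the lists (type I interferon and interferon-gamma response, signalling, regulatory factors, sensing, ligands, immediate early genes, and markers of cell types) and the tests were chosen with earlier results of these data known. All 8 genes were named. Genes of a list were named if their samples did not overlap in at least 2 of 4 comparisons or to give the range of the list. Isg20, Ifit3b, Tgtp2, Tmem173 and Irf2bpl fell short of that and were named with a single comparison without overlap. Genes were named for likeness by Pearson's r, 5 for the mean z score of the 8 and 2 for each gene. Alternatives were other pseudocounts, filters, scalings, replicate blocks and left-out samples. Samples of the same number deviated together between LV and RV of WT-PLN hearts (r of deviations from group means 0.321 to 0.657 in 3 of 3 pairs), but not in every pair of R14del-PLN hearts (0.0542 to 0.389). The main model used no block, since the labels do not say that samples of the same number shared a heart. Replicate blocks, by number alone or by genotype and number in both genotypes, were fitted as alternatives.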

Additional observations from a re-analysis of the deposited data

How the results depend on the processing

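None of the 8 genes was called in any of the 5 comparisons under any alternative that was run, and the lowest limma adjusted p was 0.0969 when single samples were left out and 0.122 otherwise. Of 991 log2 fold changes recomputed under alternatives, 953 kept their direction and 38 reversed. In R14del-PLN against WT-PLN RV, Ifit1 reversed to -0.019 with a pseudocount of 0.1 and to -0.12 without both WT-PLN samples numbered 1, and Irf1 reversed to 0.0031 with quantile normalization, 0.010 with upper quartile scaling and 0.028 without mitochondrially encoded genes. In RV against LV of WT-PLN hearts, Ifit1 reversed to 0.039 with quantile normalization, 0.017 with upper quartile scaling and 0.11 without both WT-PLN samples numbered 1. In R14del-PLN hearts, Irf1 reversed to 0.022 without mitochondrially encoded genes, and Oasl2 to 0.038 with quantile normalization, 0.049 with upper quartile scaling and 0.11 without mitochondrially encoded genes. The interaction of Bst2 reversed to -0.0046 with quantile normalization. The cause was not tested.

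Leaving out 1 sample in turn reversed 14 results at least once. They ranged from -0.24 to 0.27 for Ifit3 between genotypes in LV, and in RV from -0.31 to 0.32 for Ifit1, -0.099 to 0.13 for Irf1 and -0.10 to 0.27 for Irf7. Between the ventricles of WT-PLN hearts Ifit1 ranged from -0.29 to 0.074. In R14del-PLN hearts the ranges were -0.30 to 0.0011 for Bst2, -0.19 to 0.43 for Ifit1, -0.21 to 0.42 for Ifit3, -0.22 to 0.023 for Irf1, -0.35 to 0.084 for Irf7, -0.0070 to 0.35 for Isg15 and -0.099 to 0.12 for Oasl2. The interaction ranged from -0.036 to 0.27 for Bst2 and from -0.12 to 0.51 for Ifit1.

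With a replicate block, 0 of the 8 genes were called, and their lowest limma adjusted p was 0.148 with the number as block, 0.153 with genotype and number as a fixed block and 0.150 as a random block. The filter at a mean of 5 TPM left 3 of the 8 genes, so the others have no value there. With 3 samples in a group the permutation tests could not go below 0.1, and depth is unknown for TPM.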
